A study of Mus musculus with 49 samples.

Results

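Hippocampal RNA of 3-month-old C57BLKS/J mice was compared between mouse groups HFD-C and FD-C, which differ in the first part of the group code, the part taken here as the maternal diet, and share the second, C, taken as the diet of the offspring. The comparison used 9 HFD-C libraries and 8 FD-C libraries, 17 of the 49 libraries of the series, chosen by their group label and not by any measured value. The labels do not spell out HFD, FD, CD, C or F, so the codes are kept as written. CD-C, with 8 libraries labelled with the same age, strain and tissue, is given as a further level beside the others. The titles mark each library XX or XY: 4 XX and 5 XY in HFD-C, 4 and 4 in FD-C, and 4 and 4 in CD-C. The titles also carry a prefix, 6 different ones in HFD-C (4 libraries share HFD1.5) and 3 in FD-C (2, 2 and 4 libraries). HFD2.2, HFD2.5 and HFD3.2 also occur in mouse group HFD-F, outside the comparison. Blocks and means by prefix were taken within a mouse group, so sharing between groups was not modelled. No label says whether a prefix marks a dam, a litter or a cage, so libraries may share a dam. The p-values set a difference against the spread between libraries, not between dams. In the main fit that spread was taken within groups over all 49 libraries.

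The hippocampus is the brain region that forms spatial and contextual memory, and its CA2 field takes part in social memory. What a mother eats before and during pregnancy and lactation is known to reach the offspring brain through nutrients, hormones, immune signals and the microbes passed on at birth. Dietary fibre is fermented by gut bacteria into short-chain fatty acids, and saturated fat is known to change the same microbial community. This is background on diets in general and assigns no content to the codes.

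Values are FPKM, fragments scaled to transcript length and to the mapped fragments of a library, and they summed to between 1245489 and 1288304 per library in HFD-C and between 1220340 and 1336276 in FD-C. A relative depth, read from the smallest values above 0 in 748 sparse rows, was 0.973 to 1.011 in HFD-C and 0.934 to 1.006 in FD-C. Markers of the hippocampal fields were present: the dentate granule cell factor Prox1 averaged 16.7 ± 7.86 FPKM in HFD-C and 18.1 ± 5.87 FPKM in FD-C (SD, n = 9 and 8), and the summed level of 10 CA1 markers ran from 696 to 1256 FPKM in HFD-C and from 614 to 1041 FPKM in FD-C. The summed level of 15 choroid plexus markers ran from 35.1 to 5144 in HFD-C and from 63 to 5391 in FD-C. In bulk tissue, fewer cells of a type and less RNA per cell cannot be told apart.

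Of the 16029 rows averaging 0.5 FPKM or more over the 49 libraries, 3 passed an adjusted p under 0.05 in limma's moderated test on log2(FPKM + 0.5), which is 0.0187% of the rows. A log2 difference on this scale is HFD-C minus FD-C and understates changes of low genes. The rows higher in HFD-C were the predicted processed pseudogene Gm9830 and a row that the authors' table names for both Tll2 and Tm9sf3 (0.0125% of the rows), and the row lower in HFD-C was Elmod3 (0.00624%). Elmod3 encodes an ELMO-domain protein that acts on small GTPases of the ARL family. Tm9sf3 encodes a membrane protein of the transmembrane 9 superfamily, and Tll2 a tolloid-like metalloprotease that cleaves extracellular proteins. At an unadjusted p under 0.05, 1479 rows were higher in HFD-C (9.23%) and 659 lower (4.11%).

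The Tll2/Tm9sf3 row covers neighbouring genes on the minus strand of chromosome 19 in GRCm38.p6, Tll2 at chr19:41082753-41206835 and Tm9sf3 at chr19:41210844-41263997, and the table does not divide their signal. It had a lowest, median and highest value of 432, 456 and 469 FPKM in HFD-C, against 302, 346 and 415 FPKM in FD-C. The groups did not overlap: every HFD-C library lay above every FD-C library. Leaving out 1 library at a time, the row passed in 3 of 17 fits. The means were 452 ± 12.8 FPKM in HFD-C and 355 ± 39.2 FPKM in FD-C (SD, n = 9 and 8), a log2 difference of 0.36 (SE 0.0696, limma adjusted p = 0.0478). With libraries of a mouse group that share a title prefix treated as a block, the row did not pass (limma adjusted p = 0.0697).

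Elmod3 lies at chr6:72565922-72598413 on the minus strand. It had a lowest, median and highest value of 17.7, 19.7 and 21.7 FPKM in HFD-C, against 21.5, 24.2 and 26.6 FPKM in FD-C, so the ranges met only at their edges. The means were 19.6 ± 1.36 FPKM in HFD-C and 24.1 ± 1.84 FPKM in FD-C (SD, n = 9 and 8), a log2 difference of -0.30 (SE 0.0597, limma adjusted p = 0.0478). All 9 HFD-C libraries lay below the FD-C mean, and the row passed in 3 of the 17 fits that left out 1 library and not with the prefix as a block (limma adjusted p = 0.0697).

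The RefSeq promoters of Elmod3 and of Tm9sf3, one of the 2 genes of the combined row, in GRCm38.p6, from 250 bases before to 50 after the transcript start, are printed to show the sequence at their transcript starts; which of the 2 genes gives the combined row its signal is not known from the table. Capitals mark the GC box GGGCGG and the TATA box TATAAA, on either strand, and neighbouring GC boxes may adjoin. The window of Tm9sf3 is chr19:41263955-41264254 and that of Elmod3 is chr6:72598364-72598663, each on the minus strand and written 5′ to 3′.
Tm9sf3: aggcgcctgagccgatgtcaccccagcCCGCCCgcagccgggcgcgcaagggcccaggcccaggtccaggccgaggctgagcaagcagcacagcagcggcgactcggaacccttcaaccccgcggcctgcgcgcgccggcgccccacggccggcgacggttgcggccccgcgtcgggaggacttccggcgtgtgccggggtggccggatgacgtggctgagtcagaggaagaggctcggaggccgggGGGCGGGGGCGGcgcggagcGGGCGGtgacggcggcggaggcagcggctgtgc
Elmod3: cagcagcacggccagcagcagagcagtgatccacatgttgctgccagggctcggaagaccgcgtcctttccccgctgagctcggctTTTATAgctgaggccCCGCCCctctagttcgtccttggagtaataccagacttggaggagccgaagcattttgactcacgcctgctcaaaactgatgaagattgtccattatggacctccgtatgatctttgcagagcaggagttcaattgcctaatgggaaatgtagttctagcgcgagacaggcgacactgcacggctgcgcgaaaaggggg
The Tm9sf3 window was 78.0% GC and held 4 GC boxes, and the Elmod3 window was 55.3% GC and held 1 GC box and a TATA box, both on the strand opposite to the one printed. A second RefSeq start of Elmod3 has a window at chr6:72598248-72598547 of 56.0% GC with neither motif. Over 32851 RefSeq promoters of the same length, the median GC was 52.7%, a GC box was found in 35.7% and a TATA box in 13.6%.

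Gm9830 lies at chr9:44464243-44464599 on the plus strand, and a processed pseudogene can share reads with its parent gene, so its level is uncertain. It had a lowest, median and highest value of 2.4, 2.83 and 3.21 FPKM in HFD-C, against 1.52, 1.71 and 2.44 FPKM in FD-C. The log2 difference was 0.50 (SE 0.0888, limma adjusted p = 0.0163), with all 9 HFD-C libraries above the FD-C mean, and it passed in 11 of the 17 fits that left out 1 library. Over those fits the number of rows that passed ran from 0 to 154, the highest without FD-C replicate 5 and 0 without FD-C replicate 2, 3, 4 or 6 or HFD-C replicate 1 or 9. With the title prefix as a random block, Gm9830 was the one row of all that passed (limma adjusted p = 0.0253).

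**Figure D1:**
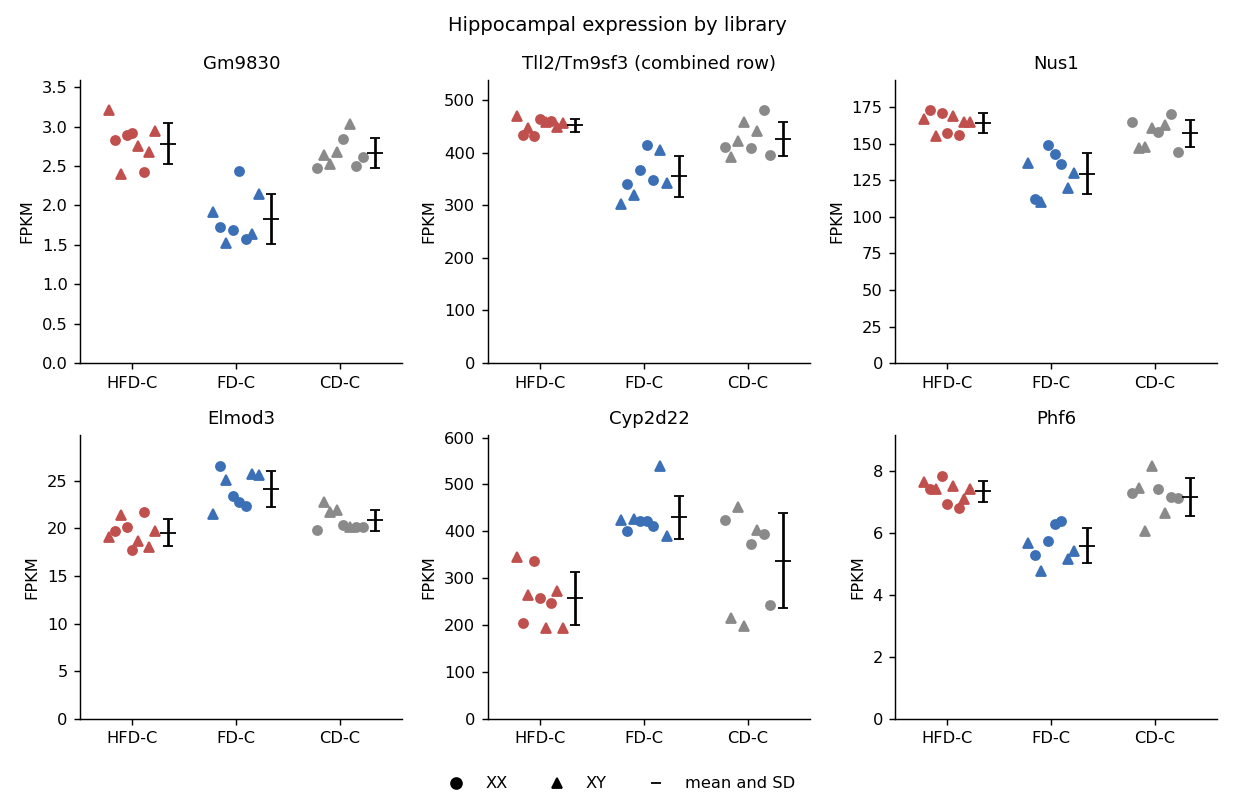
FPKM of each library (circle XX, triangle XY) in HFD-C, FD-C and CD-C for 6 rows, with the mean and SD beside the points. HFD-C lies above FD-C in every library for the Tll2/Tm9sf3 row, Nus1 and Phf6, and below it for Cyp2d22, whose CD-C libraries run from 197 to 451 FPKM.

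The rows naming a single gene, predicted genes left out, that had the smallest p in each direction missed the threshold, Elmod3 excepted, and are given as values. The 10 leading higher genes had log2 differences of 0.24 to 0.46, each with a limma adjusted p of 0.0562. Nus1, a subunit of the cis-prenyltransferase that makes dolichol, had 155, 165 and 173 FPKM (lowest, median and highest) in HFD-C, against 110, 133 and 149 FPKM in FD-C. Phf6, a chromatin protein with PHD-type zinc fingers, had 6.8, 7.43 and 7.83 FPKM in HFD-C, against 4.76, 5.54 and 6.4 FPKM in FD-C. Selt, an endoplasmic reticulum selenoprotein, had 115, 124 and 132 FPKM in HFD-C, against 71.1, 95.2 and 113 FPKM in FD-C. These were the 3 of the 10 whose groups did not overlap; over all rows 58 (0.362%) lay apart in that direction. The other genes were Agmo, which cleaves ether lipids, Zbtb11, a zinc finger protein, Crk, a signalling adaptor, Tomm70a, a receptor for mitochondrial import, Siah1a, a ubiquitin ligase, Bmi1, a Polycomb subunit, and Ppm1k, the phosphatase that activates breakdown of branched-chain amino acids. Agmo differed by 0.45 (SE 0.0949), Zbtb11 by 0.46 (SE 0.0977) and Ppm1k by 0.44 (SE 0.0995).

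The leading lower genes after Elmod3 had limma adjusted p-values up to 0.0693. Cyp2d22, a cytochrome P450 of the drug-metabolising CYP2D family, had 193, 257 and 346 FPKM in HFD-C, against 389, 422 and 540 FPKM in FD-C, with no overlap. Its log2 difference was -0.76 (SE 0.166, limma adjusted p = 0.0562), and in CD-C it ran from 197 to 451 FPKM, across both ranges. Tmem143, a transmembrane protein, had 23, 30.5 and 36.5 FPKM in HFD-C, against 38.5, 40 and 42.8 FPKM in FD-C, also with no overlap. Over all rows 16 (0.0998%) lay apart in this direction. Smox, which oxidises spermine, differed by -0.37 (SE 0.0914), Sipa1, a GTPase-activating protein for Rap, by -0.32 (SE 0.0797), and Grn, the progranulin precursor, by -0.22 (SE 0.0565). The others were Zfp574, Wbp2, Zfp691 and Pgap3, with differences of -0.36 to -0.28.

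**Figure D2:**
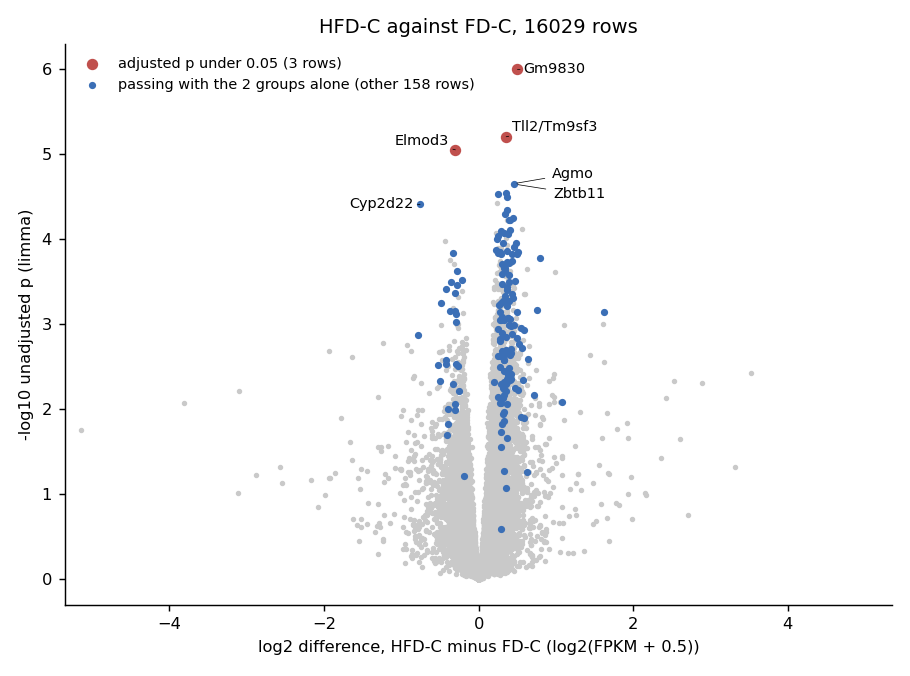
Log2 difference of HFD-C minus FD-C against -log10 of the unadjusted limma p for 16029 rows. The 3 rows that passed are red, and the other 158 rows that passed with the 2 groups alone are blue, most of them to the right of 0.

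With the 17 libraries alone in the model, 161 rows passed, 132 of them higher in HFD-C (0.824%) and 29 lower (0.181%). All 3 rows above were among them. With the title prefix as a random block this fit gave 1 row, and with means per prefix 0. The median absolute log2 difference of the 161 was 0.37 and the largest 1.62, and 156 of them had an unadjusted p under 0.05 with all 49 libraries. Both fits take the difference almost wholly from the same 17 libraries, so rows shared between them are not separate support. Leaving out 1 library gave 0 to 282 rows in this fit, the highest without FD-C replicate 5 and 0 without FD-C replicate 3 or HFD-C replicate 3, 5, 6 or 9. Of the 10 leading higher genes 8 passed in this fit, and of the 10 leading lower genes 7. Hif1a, the oxygen-regulated transcription factor, had the smallest adjusted p, 0.0246, and was chosen for naming after its value was seen. It had 51.3, 53 and 59.1 FPKM in HFD-C, against 37.7, 42.6 and 45 FPKM in FD-C, with no overlap, and its adjusted p with all 49 libraries in limma was 0.0562. It was the row that passed with the 2 groups alone and the prefix as a block (limma adjusted p = 0.0497).

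CD-C shares its libraries with both of the next comparisons, so their values are set side by side only. HFD-C against CD-C gave 0 rows (0.00%), and FD-C against CD-C gave 32 (0.200%). Alb, a liver product, had 24.3, 29.2, 50.1 and 25.5 FPKM in CD-C replicates 2, 5, 7 and 8. The other CD-C libraries had 0. Its highest value was 0.14 FPKM in HFD-C and 0.139 FPKM in FD-C. Cyp2e1, also on the liver product list, had medians of 25.4 FPKM in CD-C, 1.21 in HFD-C and 0.407 in FD-C. The part of such transcripts in the CD-C comparisons was not tested. The Tll2/Tm9sf3 row differed by 0.09 in HFD-C minus CD-C and by -0.27 in FD-C minus CD-C, and Elmod3 by -0.10 and 0.20 in the same order. Over the 10 leading higher genes, HFD-C minus CD-C ran from -0.02 to 0.10 and FD-C minus CD-C from -0.46 to -0.23, and for 2 of them, Agmo and Bmi1, the CD-C mean lay outside the span between the HFD-C and FD-C means. Over the leading lower genes, HFD-C minus CD-C ran from -0.35 to -0.02 and FD-C minus CD-C from 0.10 to 0.41.

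The difference between XX and XY libraries in the HFD-C minus FD-C contrast gave 0 rows in limma (0.00%), with 568 rows at an unadjusted p under 0.05 (3.54%). For the Tll2/Tm9sf3 row the difference was 0.29 within XX and 0.42 within XY, and for Elmod3 it was -0.26 and -0.33. Cyp2d22 differed by -0.69 within XX and -0.83 within XY. The direction of all 20 leading genes was the same within each mark. These genes were chosen by their difference over both marks, which favours such agreement.

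The base composition of transcripts moved with the comparison. Across 14085 rows with a transcript, the log2 difference had a Spearman rho of -0.584 with transcript GC, a description over rows that share the same 17 libraries. Of 10 groups of rows ordered by GC, the lowest, with a median of 39.8% GC, had a median log2 difference of 0.245, and the highest, with a median of 59.9%, had -0.124. In single libraries, the rho between the library's deviation and transcript GC ran from -0.405 to -0.122 in HFD-C, from -0.0972 to 0.455 in FD-C and from -0.347 to -0.0684 in CD-C. HFD-C and FD-C did not overlap in this measure. The 10 leading higher genes had transcripts of 39.1 to 43.8% GC, and the 10 leading lower genes 48.9 to 61.2%, against a median of 49.8% over all rows.

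When the trend with GC and length was removed from each library, 2 rows passed with all 49 libraries, Gm9830 (0.43, SE 0.0821, limma adjusted p = 0.0251) and Arf6, a small GTPase of membrane traffic (0.35, SE 0.0624, limma adjusted p = 0.0203). Arf6 had 10, 11.4 and 12.4 FPKM in HFD-C, against 8.27, 9.97 and 10.8 FPKM in FD-C. With the 2 groups alone and the trend removed, 0 rows passed in limma, against 152 on the same rows uncorrected. In the fit with all 49 libraries and the trend removed, Elmod3 differed by -0.22 and Cyp2d22 by -0.68, while the leading higher genes ran from 0.10 to 0.31. The Tll2/Tm9sf3 row has no single transcript and was not in that fit.

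**Figure D3:**
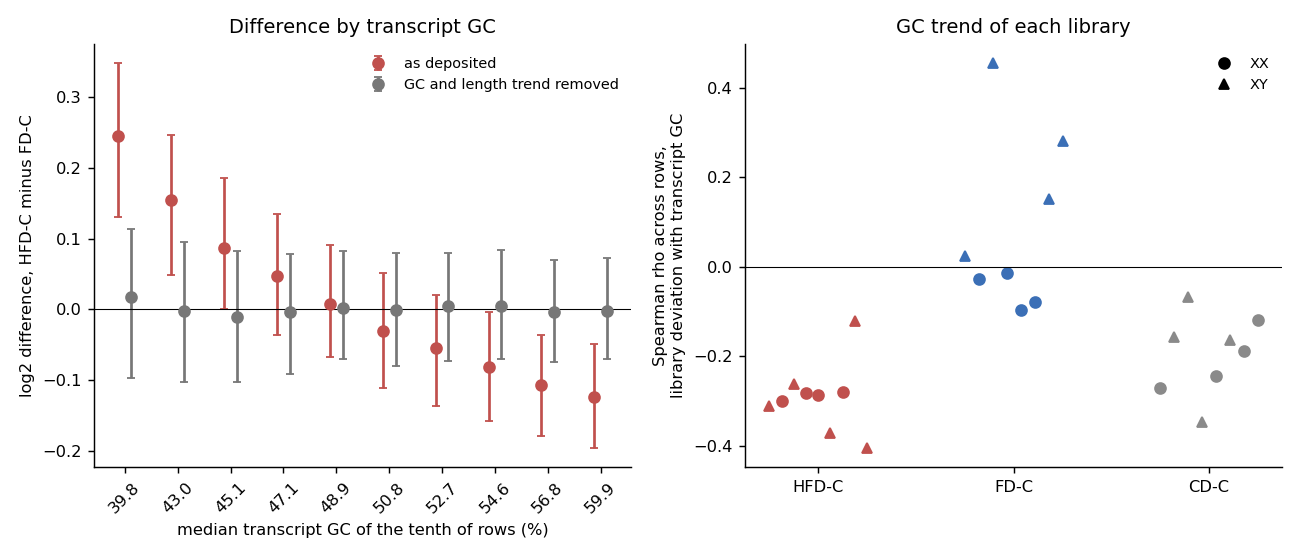
Left, median log2 difference of HFD-C minus FD-C in 10 groups of rows ordered by transcript GC, as deposited (red) and with the GC and length trend removed (grey), with bars for the interquartile range; the red medians run from 0.245 to -0.124. Right, Spearman rho of each library's deviation with transcript GC, with HFD-C below 0 in all 9 libraries and FD-C between -0.0972 and 0.455.

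In the gene lists, which are described by counts and medians, 0 members passed in limma in any of the 43 lists with all 49 libraries. The background is 9.23% of rows higher and 4.11% lower at an unadjusted p under 0.05, and the median of all rows is -0.000764. Splicing and RNA-binding protein genes, which process pre-mRNA, had 31 of 32 members with a positive difference, 13 of them at an unadjusted p under 0.05, and a median of 0.17. With the GC and length trend removed, the median of 25 members was 0.02 and 3 were higher at that level, where the background was 3.67% of rows higher and 3.22% lower. Hnrnpa2b1, which binds pre-mRNA and directs RNA transport in neurons, had 311, 392 and 430 FPKM in HFD-C, against 215, 310 and 374 FPKM in FD-C. Its difference was 0.38 (SE 0.0884, limma adjusted p = 0.0562), and that of Hnrnpa1 was 0.27 (limma adjusted p = 0.0588).

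GABA receptor subunits, the chloride channels and G-protein receptors of fast and slow inhibition, had 14 of 17 positive differences, 6 at an unadjusted p under 0.05, and a median of 0.17. With the trend removed the median was 0.11 and 2 of 16 were at that level. Of 29 excitatory postsynapse genes, 4 were higher and 3 lower at an unadjusted p under 0.05. Grm5, the group I metabotropic glutamate receptor, had 26.4, 29.5 and 34.6 FPKM in HFD-C, against 13.3, 22.6 and 24.6 FPKM in FD-C, with no overlap, and passed with the 2 groups alone (limma adjusted p = 0.0377) but not with the prefix as a block in that fit (0.0772). With the trend removed its difference was 0.33, against 0.53 as deposited. Nlgn2, the neuroligin of inhibitory synapses, was on the excitatory postsynapse list and among its 3 lower members. It differed by -0.40 (limma adjusted p = 0.134).

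Among 33 cholesterol synthesis and SREBP genes, 6 were higher and 2 lower at an unadjusted p under 0.05, and 16 differences were positive and 17 negative. With the trend removed, 2 of the 29 members in that fit were higher and 3 lower at that level. Idi1, which isomerises isopentenyl diphosphate, had 6.93, 7.65 and 10.8 FPKM in HFD-C, against 4.04, 5.75 and 7.66 FPKM in FD-C, a difference of 0.49 (SE 0.115, limma adjusted p = 0.0562). Sc5d, a late sterol desaturase, differed by 0.30 (limma adjusted p = 0.0589), and by 0.14 with the trend removed. Among 30 autism-associated genes 6 were higher and 1 lower at an unadjusted p under 0.05. Of the 27 in the fit with the trend removed, 3 were higher and 1 lower at that level. Fmr1, the translational regulator lost in fragile X syndrome, had 25.4, 29.1 and 31.5 FPKM in HFD-C, against 14.9, 23.1 and 25.2 FPKM in FD-C, with no overlap (log2 difference 0.42, limma adjusted p = 0.118 with all 49 libraries and 0.041 with the 2 groups alone). Its difference was 0.18 with the trend removed, and it did not pass with the 2 groups alone and the prefix as a block (limma adjusted p = 0.0818).

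**Figure D4:**
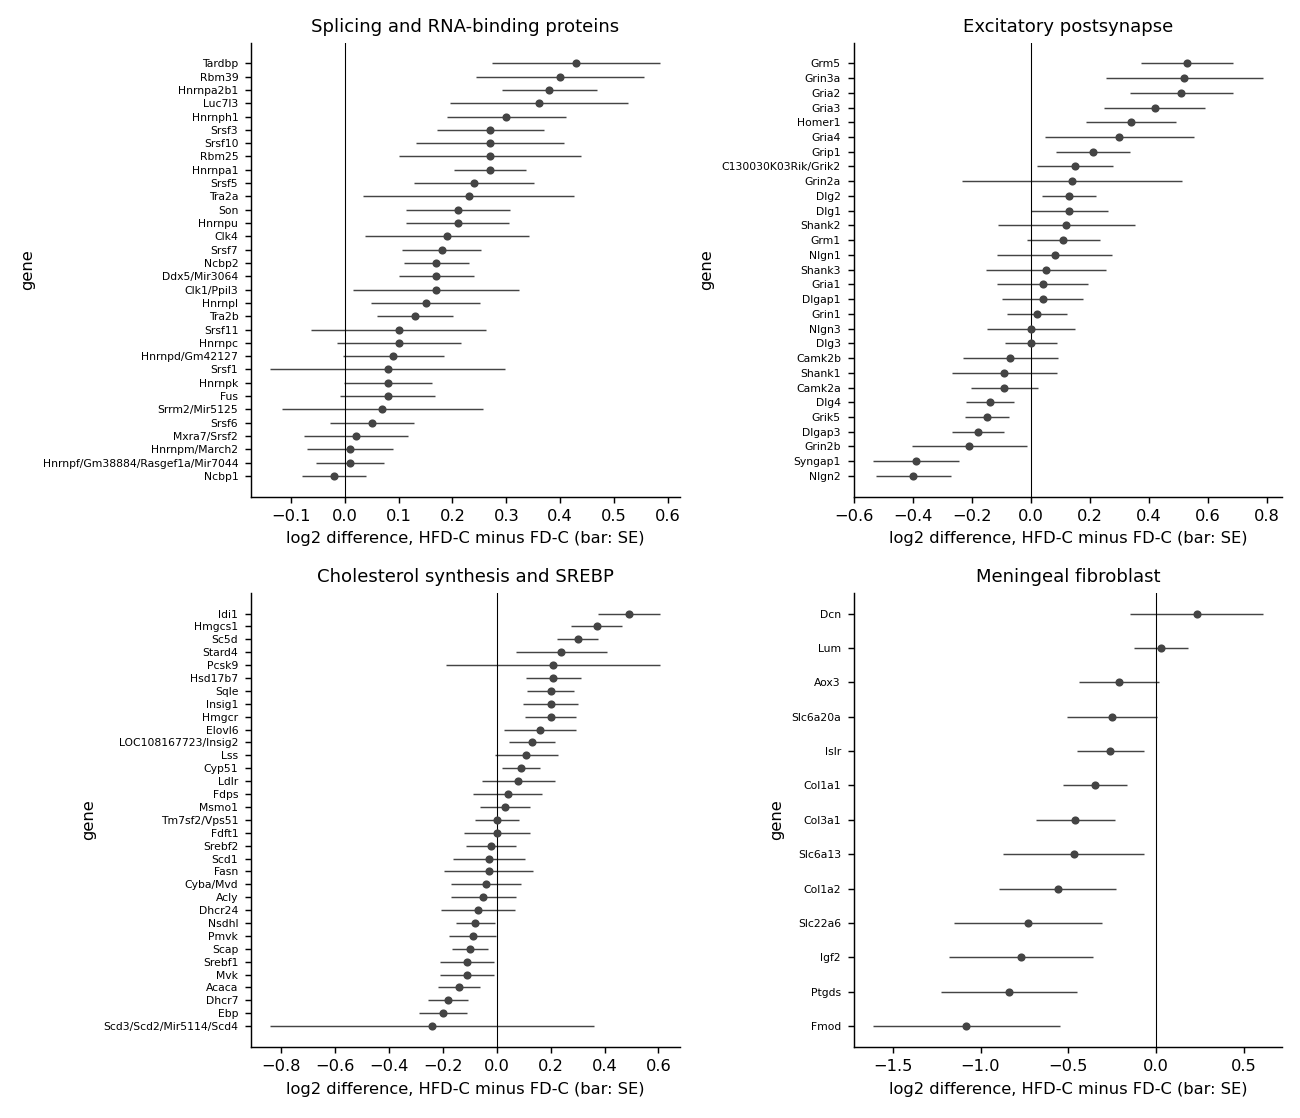
Log2 difference of HFD-C minus FD-C with its SE for the members of 4 gene lists. Splicing genes lie right of 0 in 31 of 32 cases, excitatory postsynapse genes in 19 of 29, cholesterol genes on both sides, and meningeal fibroblast markers left of 0 in 11 of 13.

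Markers of the meninges and ventricles, tissues next to the hippocampus, had mostly negative differences, and none passed. Meningeal fibroblast markers had 2 positive and 11 negative differences with a median of -0.46 (-0.37 with the trend removed), and 3 were lower at an unadjusted p under 0.05. With the trend removed, 1 was lower at that level. Their summed level ran from 208 to 836 FPKM (median 370) in HFD-C, against 373 to 1125 FPKM (median 575) in FD-C. Most of this sum came from Ptgds, which averaged 312 FPKM in HFD-C and 551 FPKM in FD-C. Ptgds, the prostaglandin D synthase of leptomeninges, had 139, 283 and 705 FPKM in HFD-C, against 299, 452 and 925 FPKM in FD-C (limma adjusted p = 0.331). All 5 border macrophage markers and all 7 ependymal markers tested had negative differences, with medians of -0.30 and -0.31. The part of such tissue in the other results was not tested.

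Microglial markers had 9 positive and 11 negative differences and a median of -0.04, and astrocyte markers a median of -0.08. Single genes of wide interest gave limma adjusted p-values above the threshold. Nr3c1, the glucocorticoid receptor, had 10.4, 19 and 21.5 FPKM in HFD-C, against 10.2, 12.5 and 16.2 FPKM in FD-C, a difference of 0.44 (SE 0.12, limma adjusted p = 0.0786). With the trend removed it was 0.25, and with the 2 groups alone the limma adjusted p was 0.108. Bdnf, the activity-dependent neurotrophin, differed by 0.26 (SE 0.153; 0.06 with the trend removed), Dlg4, on 2 rows, by -0.14 (SE 0.0812; -0.23 with it removed), and the microglial Tmem119 by -0.20 (SE 0.108; -0.07 with it removed). P2ry12, another microglial receptor, differed by 0.32 (SE 0.24, and 0.09 with the trend removed). Syp, a synaptic vesicle protein, differed by -0.18 (SE 0.0912), and by -0.25 with the trend removed. Srebf1, the activator of fatty acid synthesis, differed by -0.11 (SE 0.099, and -0.01 with the trend removed). Cx3cr1 differed by -0.09 (SE 0.53). Fos, Arc, Hspa5, Oxtr and Csf1r had differences between -0.08 and 0.07.

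**Figure D5:**
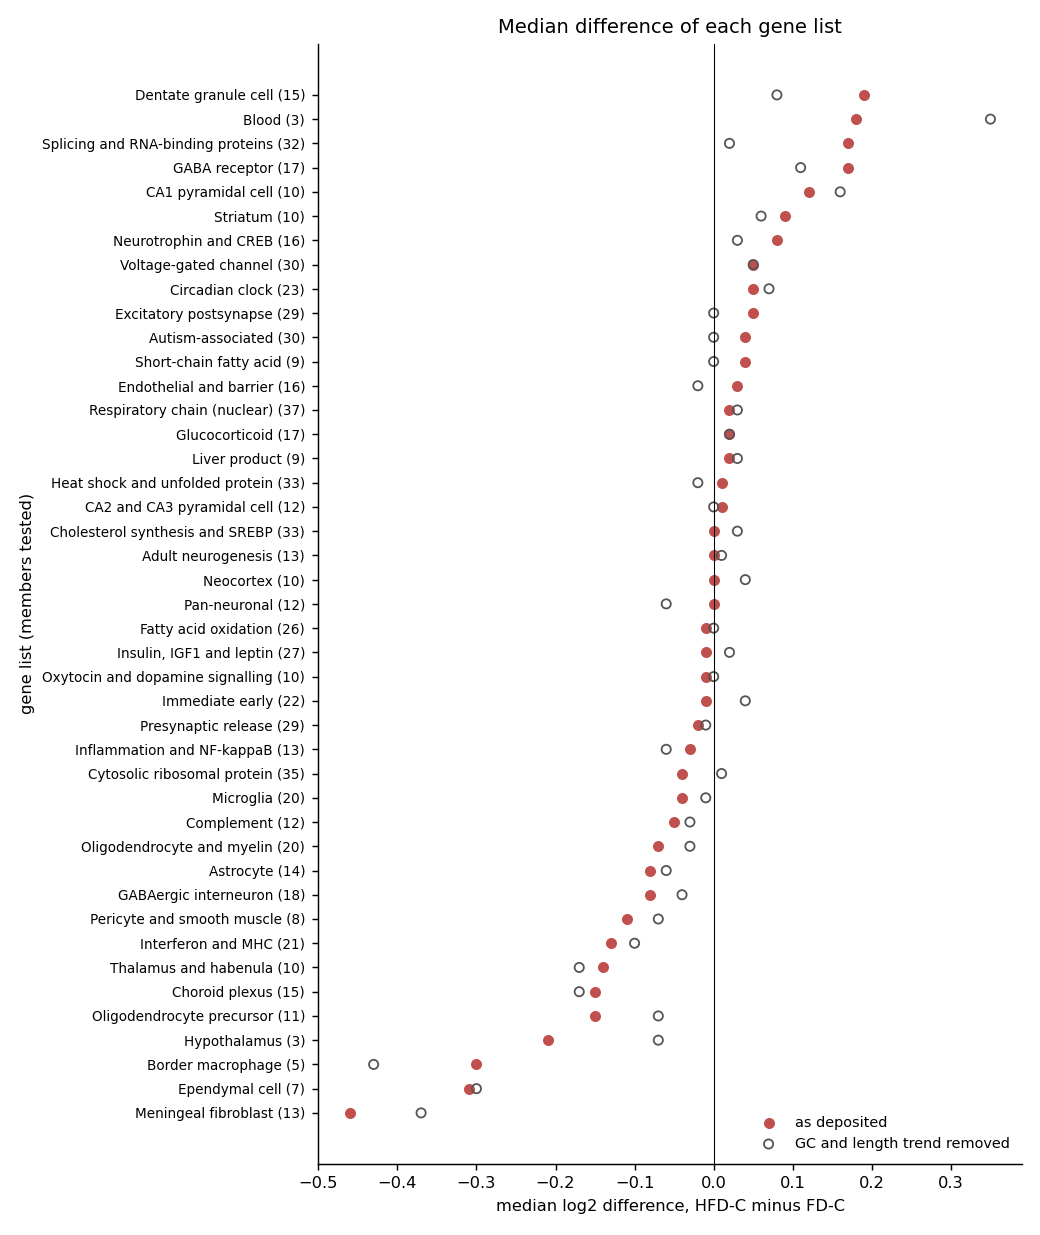
Median log2 difference of HFD-C minus FD-C for each gene list. Red is over the tested members as deposited. Open is over the members with a transcript GC, with the GC and length trend removed. The splicing median is 0.17 over 32 members, and 0.02 over 25 with the trend removed. The meningeal fibroblast median is -0.46, and -0.37 with the trend removed.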

How the data were processed

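The RNA selection and the strand of the libraries were not found among the labels. RNA came from phenol-chloroform extracts on BGI-500 libraries, per the labels. Reads were processed with Trimmomatic 0.38, HISAT2 and StringTie 1.3.4d on GRCm38.p6, per the submitters' processing notes. The deposited table holds FPKM by gene row, 42521 rows, of which 1146 name more than 1 gene; raw counts were not used here.

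Values were analysed as log2(FPKM + 0.5) over the 16029 rows averaging 0.5 FPKM or more, in limma 3.58.1 (R 4.3.3) with all 49 libraries, a mean per mouse group and the XX or XY mark, and Benjamini-Hochberg adjustment over all rows. The test was checked on simulated data. Transcript GC and length came from the GENCODE annotation, for 87.9% of rows, and the trends were removed with splines of 4 degrees of freedom. The members and gene lists were chosen with earlier results of these data known. Named genes were the 10 with the smallest p in each direction on rows naming 1 gene, at least 1 FPKM on average, without predicted names, the 2 smallest p of each list, and a fixed panel; the Tll2/Tm9sf3 row, Gm9830, Hif1a and Arf6 were named after their values were seen. Some members of the GABA receptor list are not reported here by name. Alternatives were pseudocounts, filters, scalings, library weights, prefix blocks and leaving out libraries.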

Additional observations from a re-analysis of the deposited data

Results flagged for a closer look

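Among 70 groups examined (a named gene in HFD-C or in FD-C), 6 held a library that stood apart from the others by Dixon's ratio at the 95% level; chance flags about 1 in 20 groups. Zbtb11 was highest in FD-C replicate 5, at 51.9 FPKM, with the next library at 36.6 FPKM. Siah1a was highest in HFD-C replicate 7, at 4.71 FPKM, with the next at 4.47 FPKM. Cyp2d22 was highest in FD-C replicate 7, at 540 FPKM, with the next at 426 FPKM, so this library lies on the far side from HFD-C. Smox was lowest in FD-C replicate 3, at 42.6 FPKM, with the next at 46.5 FPKM. Cx3cr1, a microglial chemokine receptor, was highest in HFD-C replicate 6, at 215 FPKM against 57.1 FPKM in the next, and in FD-C replicate 8, at 439 FPKM against 61.3 FPKM in the next.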

How the results depend on the processing

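The count of 3 rows was the same with a pseudocount of 0.1 or 1, a mean of at least 1 FPKM and robust variances. It was 1 with no filter on low rows, without the mark, without the variance trend, with the title prefix as a random block and on the GC and length rows uncorrected, 2 with rescaling to the median ratio and with GC and length removed, and 0 with quantile normalization. It was 6 with means per prefix, 59 with a mean of at least 5 FPKM, 161 with the 2 groups alone and 555 with library weights. Within XX or XY libraries alone it was 0 (705 and 1823 rows at an unadjusted p under 0.05, limma). Leaving out 1 library gave 0 to 154 rows: 154 without FD-C replicate 5, and 0 without FD-C replicate 2, 3, 4 or 6 or HFD-C replicate 1 or 9. Without a prefix the count was 11 (FD1.2), 0 (FD2.1), 32 (FD2.2) and 1 (HFD1.5). With the 2 groups alone, leaving out 1 library gave 0 to 282 rows, a prefix block 1, means per prefix 0 and GC and length removed 0. Alternatives for the 2 groups alone, other than the fit itself, and the uncorrected GC rows were chosen after seeing the data. Over the 22 leading or called genes, which were chosen for their difference, 0 of 853 values changed sign; of 1677 list medians 130 did. In the panel, 7 genes with small differences changed sign in 1 to 9 fits (log2, HFD-C minus FD-C). Csf1r was 0.01 with means per prefix and without FD2.2, 0.00 without HFD1.5, 0.05 with GC and length removed, 0.20 in XX alone, and -0.06 to 0.05 leaving out 1 library. Cx3cr1 was 0.07 with library weights, 0.15 with means per prefix, 0.22 without FD2.2, 0.14 without HFD1.5, 0.19 in XX alone, and -0.35 (without HFD-C replicate 6) to 0.35 (without FD-C replicate 8). Oxtr was 0.04 with means per prefix, 0.08 without HFD1.5, and -0.21 to 0.02 leaving out 1 library. Fos was -0.12 without FD2.1, -0.23 in XY alone, and -0.03 to 0.20 leaving out 1 library, and Arc -0.04, -0.11 and -0.03 to 0.14 in the same order. Srebf1 was 0.11 in XX alone. Hspa5 was -0.05 with means per prefix, -0.04 with GC and length removed, -0.15 without FD1.2, -0.20 without HFD1.5, -0.16 in XX alone, and -0.04 to 0.12 leaving out 1 library. The cause of these changes was not tested. No paired analysis was possible because the replicate numbers are names in accession order. Read depth was not used, and the spread between libraries limits precision.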

Other observations

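Ndufs3, a core subunit of respiratory complex I that every cell uses, was listed at 0 in some libraries on the row given here, 1 of 2 rows with its name. Its lowest, median and highest values were 0, 93.2 and 129 FPKM in HFD-C, 0, 0 and 135 FPKM in FD-C and 88.2, 118 and 143 FPKM in CD-C. H2-D1, a class I histocompatibility gene with 4 rows, was likewise at 0 in its lowest library of each group, with medians of 111 FPKM in HFD-C, 0 in FD-C and 0 in CD-C. Rims1, a scaffold of the presynaptic release site with 2 rows, had 36.5, 62.1 and 334 FPKM in HFD-C, against 17.1, 38.3 and 55.4 FPKM in FD-C (log2 difference 1.63, limma adjusted p = 0.131), and its highest CD-C library reached 312 FPKM. Rfx3, a transcription factor, had 33.1, 711 and 920 FPKM in HFD-C, against 32.8, 286 and 647 FPKM in FD-C. Rfx3 is on the dentate granule cell list and averaged 651 ± 271 FPKM in HFD-C and 309 ± 294 FPKM in FD-C (SD, n = 9 and 8). Its log2 difference was 1.79 (SE 0.723, limma adjusted p = 0.245), and its CD-C libraries ran from 30 to 970 FPKM. The 15 members of that list had 11 positive and 4 negative differences with a median of 0.19.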
